A study of Mus musculus with 2 samples.

Results

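The ankyrin and spectrin genes described here are Ank1, Ank2 and Ank3, which encode the ankyrin adaptors, and Sptan1, Sptb, Sptbn1 and Sptbn4, which encode 1 alpha and 3 beta spectrins. The rule that chose them uses gene names alone and no measured value. They were matched by GENCODE symbol to the gene identifiers of the deposited tables. All 7 were found among 69691 listed features, of which 43346 are Ensembl genes. The study measured total RNA from the hindbrain of healthy mouse embryos of the B6NCrl strain at embryonic day 16.5, in 1 group with 2 biological replicates. Each replicate was a pool of male and female embryos. The pool of replicate 2 held 37 embryos, and for replicate 1 the labels give no number. The labels call the pools biological replicates and do not say whether they came from separate litters. RNA longer than 200 bases was used, with 10 ng entering each library. There is no treatment, genotype or time contrast, and permuting 2 libraries cannot give a p below 0.5, so no p-value is given and differences are described between the pools.

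Spectrins are long, flexible proteins in which an alpha and a beta chain pair side by side and then join end to end, cross-linking short actin filaments into a lattice beneath the plasma membrane. Ankyrins bind the beta chain on one side and membrane proteins such as ion channels, exchangers and cell adhesion molecules on the other. In neurons this lattice lines the axon as a periodic skeleton, and ankyrin-G together with beta-IV-spectrin gathers sodium and potassium channels at the axon initial segment and the nodes of Ranvier. The same protein families were first described in the red blood cell, whose membrane skeleton contains ankyrin-R and beta-I-spectrin.

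The library of replicate 1 held 42467811 expected counts and that of replicate 2 held 42017008, and the members took 0.145% and 0.143% of the gene counts. The tissue label was checked against position markers: 7 of 8 hindbrain genes reached 1 TPM in both replicates (En2 did not, at 0.34 and 0.46 TPM), and 0 of 6 forebrain genes did. TPM, or transcripts per 1e6, is a level corrected for transcript length. The pools differed in their content of other tissue. Skeletal muscle markers summed to 372 TPM in replicate 1 and 17.2 TPM in replicate 2, with 9 of the 10 over 2-fold higher in replicate 1. Forebrain markers summed to 15.6 and 0.33 TPM, and endothelial and meningeal markers to 658 and 396 TPM. Most of the latter gap was in the collagens Col1a1 (230.75 and 88.04 TPM) and Col3a1 (255.24 and 155.57 TPM). Of the endothelial markers, Cldn5 overlapped (105.19 and 103.89 TPM), while Pecam1 (17.6 and 13.77 TPM) and Kdr (23.93 and 18.06 TPM) were higher in replicate 1. All 8 neuronal markers and all 8 progenitor and glial markers were detected, and of these Gfap and Aqp4 were over 2-fold higher in replicate 2. In bulk tissue, fewer cells of a type and less RNA per cell cannot be told apart.

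All 7 members were detected, meaning 1 TPM or more in both replicates, against 63.5% of 21474 protein-coding genes. They fell into an abundant set and a scarce set. Sptbn1, Sptan1, Ank2 and Ank3 had mean levels from 58.9 to 158 TPM, between the 86.0 and the 95.3 percentile of protein-coding genes. Sptb, Sptbn4 and Ank1 had means from 2.59 to 6.46 TPM, between the 42.2 and the 51.3 percentile. The scarce set is made up of the genes best known from red cells (Sptb, Ank1) and the beta-spectrin of the axon initial segment and nodes (Sptbn4).

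**Figure D1:**
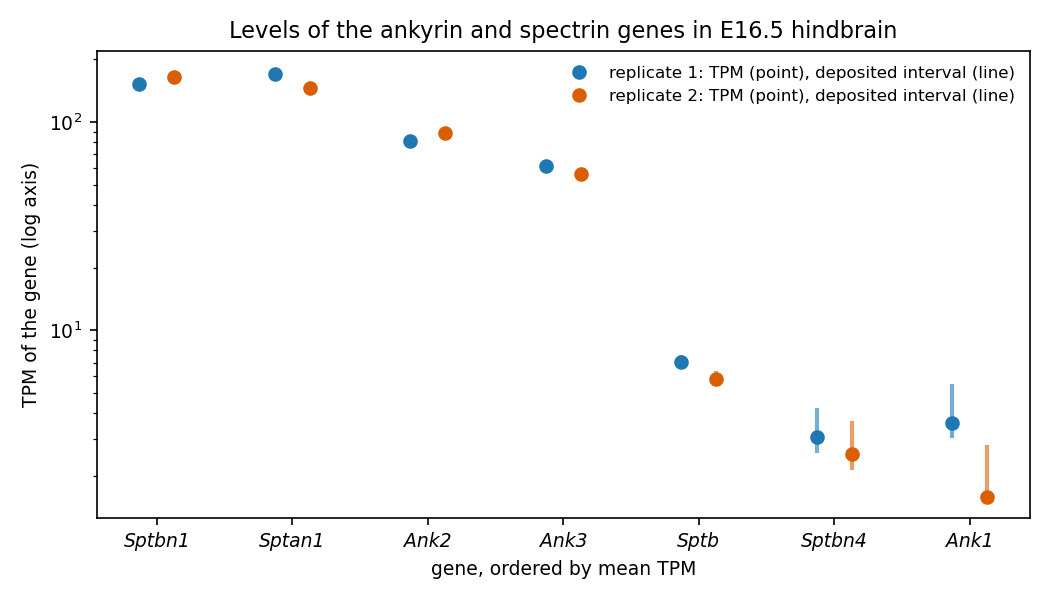
Deposited TPM of each gene (log axis) in replicate 1 (blue) and replicate 2 (orange), with genes ordered by mean TPM; points are TPM and vertical lines the deposited intervals, which for abundant genes are shorter than the points. The 4 abundant genes sit above 50 TPM and the other 3 below 10 TPM in both replicates, and Ank1 has the widest gap between replicates.

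Sptan1 encodes alpha-II-spectrin, the alpha chain of most cells other than red cells. It stood at 169.78 TPM in replicate 1 (deposited interval 160 to 174) and 145.29 TPM in replicate 2 (136 to 149), a mean of 158 ± 17.3 TPM (SD, n = 2). The intervals did not overlap and replicate 1 was higher. The gene (ENSMUSG00000057738.9) lies on the forward strand at chr2:29965560-30031451 of GRCm38, the same build as mm10.

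Sptbn1 encodes beta-II-spectrin, the widely expressed beta chain that forms the lattice along axons. Its level was 152.23 TPM in replicate 1 and 164.08 TPM in replicate 2, a mean of 158 ± 8.38 TPM (SD, n = 2). In both libraries this TPM lies just above its own deposited interval (146 to 151 and 158 to 163), so that interval is not a usable error for the level of this gene. The gene (ENSMUSG00000020315.14) spans 169 kb on the reverse strand at chr11:30099395-30268175. Sptbn1 and Sptan1 had nearly equal means and exchanged places between the pools, with Sptbn1 at 0.897 times Sptan1 in replicate 1 and 1.13 times in replicate 2.

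Among the other beta chains, Sptb, the beta-I-spectrin of red cells and muscle, stood at 7.06 TPM in replicate 1 (6.64 to 7.64) and 5.85 TPM in replicate 2 (5.48 to 6.34). Sptbn4, the beta-IV-spectrin that ankyrin-G recruits to initial segments, stood at 3.09 TPM (2.57 to 4.26) and 2.55 TPM (2.13 to 3.65). Sptb was higher in replicate 1 with no overlap of intervals, while those of Sptbn4 overlapped. Sptb (ENSMUSG00000021061.11) is at chr12:76580488-76710547 and Sptbn4 (ENSMUSG00000011751.12) at chr7:27356383-27447686, both on the reverse strand. Within the 3 beta-spectrin genes described here, Sptbn1 supplied 93.7% of the TPM in replicate 1 and 95.1% in replicate 2. Their sum was 0.956 times the level of Sptan1 in replicate 1 and 1.19 times in replicate 2.

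Ank2 encodes ankyrin-B, which in neurons is spread along the axon. Over all transcripts it was the most abundant ankyrin, at 80.92 TPM in replicate 1 (78.4 to 84.7) and 88.73 TPM in replicate 2 (87.0 to 92.8), a mean of 84.8 ± 5.52 TPM (SD, n = 2). Replicate 2 was higher, with intervals that did not overlap. Ank3 encodes ankyrin-G, the organiser of the axon initial segment. Its level was 61.22 TPM in replicate 1 (57.7 to 64.5) and 56.56 TPM in replicate 2 (53.7 to 59.8), a mean of 58.9 ± 3.30 TPM (SD, n = 2), with overlapping intervals. Both genes are very long: Ank2 (ENSMUSG00000032826.12) covers 578 kb on the reverse strand at chr3:126921612-127499350 and Ank3 (ENSMUSG00000069601.9) 629 kb on the forward strand at chr10:69398773-70027438.

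Ank1 encodes ankyrin-R, the founding ankyrin of the red cell skeleton. It stood at 3.59 TPM in replicate 1 (3.02 to 5.53) and 1.59 TPM in replicate 2, where the TPM lies below its own interval of 1.69 to 2.80. The intervals did not overlap between the pools. The gene (ENSMUSG00000031543.14) is on the forward strand at chr8:22974844-23150497. Ank2 took 55.5% and 60.4% of ankyrin TPM in the 2 replicates, Ank3 42.01% and 38.5%, and Ank1 2.46% and 1.08%.

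In the order of levels, 4 of the 6 neighbouring pairs differed, meaning that their TPM intervals were apart within each library and that both libraries gave the same order. Sptan1 exceeded Ank2 by 2.10 and 1.64 times, Ank2 exceeded Ank3 by 1.32 and 1.57 times, Ank3 exceeded Sptb by 8.67 and 9.67 times, and Sptb exceeded Sptbn4 by 2.28 and 2.29 times. Sptbn1 and Sptan1 could not be ordered, nor could Sptbn4 and Ank1. The intervals cover counting and assignment error within a library and not the difference between pools, and the headers do not state their confidence level.

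The rule for the members asks how long and short ankyrin transcripts compare. Each deposited transcript has a length and a percentage of its gene's TPM. Transcripts of at least 4000 bases are called long here and those of at least 10000 bases giant. For Ank2, long transcripts held 69.4% of TPM in replicate 1 and 69.9% in replicate 2. For Ank3 they held 49.1% and 51.9%. For Ank1 they held 54.2% in replicate 1 and 100% in replicate 2. By share of expected counts, the long Ank1 transcripts held 91.7% and 100%, so the gap in TPM share rests on few reads in very short transcripts.

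**Figure D2:**
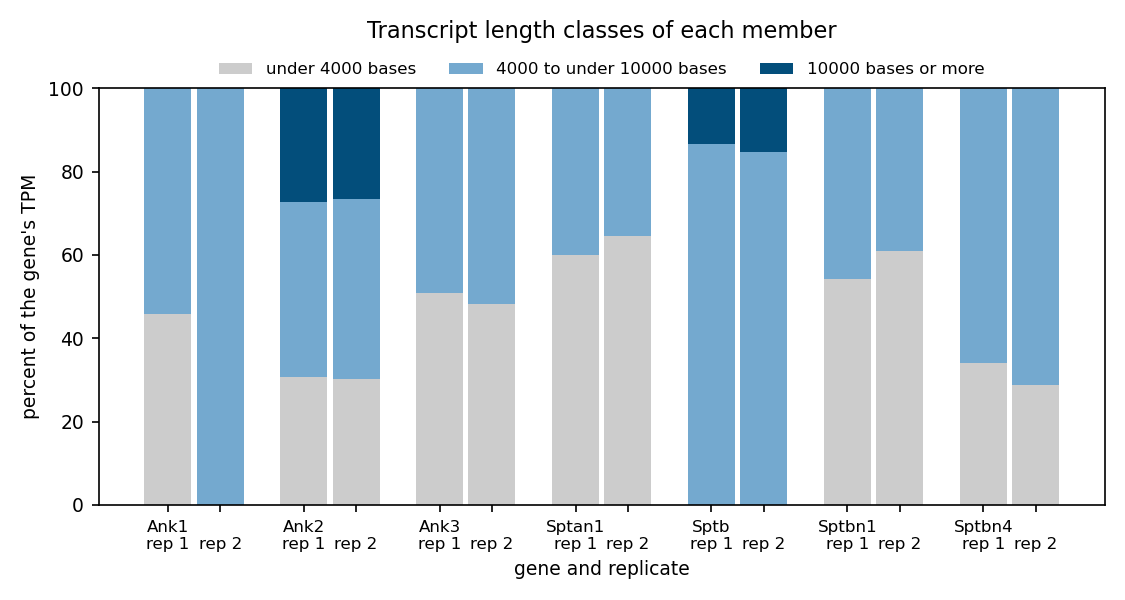
Percent of each gene's TPM (vertical axis, 0 to 100) in transcripts under 4000 bases (grey), of 4000 to under 10000 bases (light blue) and of 10000 bases or more (dark blue), with 1 bar for each gene and replicate. The giant class appears in Ank2 and Sptb, and the grey class of Ank1 is present in replicate 1 (45.8%) and at 0 in replicate 2.

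Giant ankyrin-B and ankyrin-G are made from messages that include 1 very large exon, which shorter forms skip or, in 4 annotated Ank3 transcripts, hold only in part. In the GENCODE M21 annotation that exon has 6198 bases in Ank2 (chr3:126941610-126947807) and 7674 bases in Ank3 (chr10:69986089-69993762). The joins at its 2 ends are shown because they mark where the whole exon is spliced in. Capitals mark bases of the giant exon, and each sequence is 30 bases either side of the join. They come from the annotated transcripts Ank3-244, Ank3-231 and Ank2-208, the last of which has another length in the deposited tables.
Ank3 into the giant exon: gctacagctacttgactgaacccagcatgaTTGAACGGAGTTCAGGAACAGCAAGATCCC
Ank3 out of the giant exon: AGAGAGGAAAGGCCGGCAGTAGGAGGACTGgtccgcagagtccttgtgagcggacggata
Ank3 skipping the giant exon: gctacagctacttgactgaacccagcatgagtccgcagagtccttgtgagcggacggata
Ank2 into the giant exon: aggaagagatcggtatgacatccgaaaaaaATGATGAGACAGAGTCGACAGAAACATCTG
Ank2 out of the giant exon: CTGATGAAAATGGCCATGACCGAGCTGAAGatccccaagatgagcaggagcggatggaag
In the skipping form of Ank3, the exon before the giant exon joins directly to the exon after it.

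For Ank2, 6 deposited transcripts of 11767 to 14308 bases formed the giant class, and 4 of them were above 0. They held 27.3% of Ank2 TPM in replicate 1 and 26.5% in replicate 2, a mean of 26.9% ± 0.594 (SD, n = 2). In TPM that is 22.1 and 23.5, so the giant ankyrin-B messages were each time more abundant than all transcripts of Sptb, Sptbn4 and Ank1 together. Because TPM divides by length, the same transcripts held 53.1% and 51.5% of the reads assigned to Ank2. The most abundant was a transcript of 13865 bases at 12.56 and 13.56 TPM, with 15.5% and 15.3% of the gene. The longest, of 14308 bases, was at 4.02 and 2.86 TPM, with intervals from 1.97 to 7.01 and from 1.52 to 4.11.

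The leading Ank2 transcript has a deposited length of 5208 bases, with 25.2% and 28.7% of Ank2 TPM (20.39 and 25.47 TPM). In M21 the same identifier is Ank2-208, with 14305 bases, a coding sequence of 11700 bases and the giant exon whose joins are shown above, so whether its reads stand for a giant or a shorter message cannot be told from these tables. After it and the 13865-base transcript, one of 8095 bases held 14.3% and 12.5%. Ank2 TPM was spread widely: 8 transcripts in replicate 1 and 9 in replicate 2 were needed to reach 80% of it, and 14 of its 34 transcripts were at 1 TPM or more in both pools. The authors' annotation, GENCODE M4, and the M21 annotation used here for structure differ at Ank2. Of the 34 deposited transcripts, 8 are absent from M21 and 16 have another length there, and all 6 giant ones are among the absent, so the giant class of Ank2 rests on deposited length and its exons were not read.

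For Ank3, no deposited transcript reached 10000 bases, and the giant class by length was therefore at 0. The longest, Ank3-231, has 9963 bases, a coding sequence of 5883 bases and no giant exon, and it led the gene with 25.3% and 28.4% of TPM (15.47 and 16.06 TPM). The giant exon is instead carried by Ank3-244, whose annotated coding sequence runs over its whole 8612 bases and which includes all 7674 bases of the exon and stood at 7.41 and 7 TPM, or 12.1% and 12.4% of the gene. A measure by exon was therefore added after the values were seen. Counting every Ank3 transcript with at least 300 bases of the exon gave 5 transcripts with 28.1% of TPM in replicate 1 and 30.3% in replicate 2. These held 17.2 TPM in each pool.

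The 17 annotated Ank3 transcripts that contain the skipping join held 21.4 TPM in replicate 1 and 20.4 TPM in replicate 2, or 35.0% and 36.1% of the gene. Transcripts with any such part of the giant exon thus stood at 0.802 and 0.841 times those that skip it. Ank3-244, the only one with the whole exon, stood at 0.346 and 0.343 times those that skip it. It is annotated with 9 exons at chr10:69978471-69999498, where Ank3-231 has 43 exons over chr10:69533772-70027438. Ank3-244 is thus a fragment of the gene, and these ratios do not set complete giant messages against complete shorter ones. The remaining 36.9% and 33.6% of Ank3 TPM was in transcripts that show neither. Among them was Ank3-235, a retained-intron fragment of 626 bases at 6.21 and 3.06 TPM, whose intervals (3.47 to 8.46 and 0.969 to 5.37) overlap. Of the 5 transcripts counted with the exon, Ank3-236 has 784 bases of the giant exon and was at 3.95 and 5.66 TPM, and Ank3-225, typed as a target of nonsense-mediated decay, has 2759 bases of it and was at 4.26 and 3.26 TPM. Together the 4 partial transcripts, with 385 to 2759 of the 7674 bases, held 9.78 and 10.15 TPM, more than Ank3-244. All 44 Ank3 transcripts have the same length in both annotations.

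The Ank1 transcripts to which reads were assigned were not the same in the pools. The gene has 17 transcripts from several starts. Full-length ankyrin-R messages begin at the first start or at starts 60.3 and 83.4 kb further on, while 4 short ones begin more than 164 kb in, near the 3′ end. The 3 short coding transcripts, Ank1-201, Ank1-208 and Ank1-217, encode small ankyrin, a form known from the sarcoplasmic reticulum of striated muscle, which begins with a membrane-spanning stretch and lacks the ankyrin repeats. Its first 60 coding bases (start codon in capitals) are found in those 3 transcripts and in no other Ank1 transcript, which is why they are shown.
Ank1 small form: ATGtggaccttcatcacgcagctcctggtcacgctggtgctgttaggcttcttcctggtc
They begin in the exon at chr8:23139030-23139495.

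In replicate 1 the 3 small coding transcripts summed to 1.14 TPM, from 27.8 expected counts, or 31.8% of Ank1. In replicate 2 they were at 0, which allows up to 3 counts. The retained-intron transcript of the same region, Ank1-211, was at 0.50 TPM in replicate 1 and 0 in replicate 2. Each of these transcripts has a deposited interval that starts near 0 in replicate 1 (for Ank1-208, 0.000401 to 0.813 TPM) and overlaps that of replicate 2, so no single one of them differs beyond its assignment error. The striated muscle markers moved the same way, 9 of 10 being over 2-fold higher in replicate 1, with Acta1, the actin of skeletal muscle, at 139.5 and 9.94 TPM and Actc1, the actin of heart and embryonic muscle, at 59.9 and 1.05 TPM. Their part in the Ank1 result was not tested.

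The long Ank1 messages were closer between the pools. All Ank1 transcripts outside the last start summed to 1.94 TPM in replicate 1 and 1.59 TPM in replicate 2, from 353 and 284 expected counts. On the log2 scale the ratio of replicate 2 over replicate 1 was -1.17 for the whole gene by deposited TPM and -0.29 without the transcripts of the last start. The leading transcript in both pools was Ank1-209, of 8218 bases from the first start, at 1.12 and 0.68 TPM. Ank1-207, from the start 83.4 kb further on, was listed at 0 in replicate 1 and 0.39 TPM in replicate 2, and the longest transcript, Ank1-210 of 8366 bases from the same start, at 0.31 and 0 TPM. The intervals of each of these overlapped between the pools.

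Red cell RNA also differed between the pools. The 9 red cell markers found summed to 4901 TPM in replicate 1 and 3983 TPM in replicate 2, of which Hba-a1 and Hbb-bt, the adult globins, made up nearly all. Of the 5 that averaged 1 TPM or more, 4 were higher in replicate 1 without overlap, against 19.7% of all genes with such a mean. The membrane skeleton partners of ankyrin-R in that cell were scarce: Slc4a1, the anion exchanger that ankyrin-R anchors, stood at 2.56 and 1.15 TPM, Epb42 at 0.47 and 0.05 TPM, and Rhag at 0.07 and 0.09 TPM. Their part in the levels of Ank1 and Sptb was not tested.

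**Figure D3:**
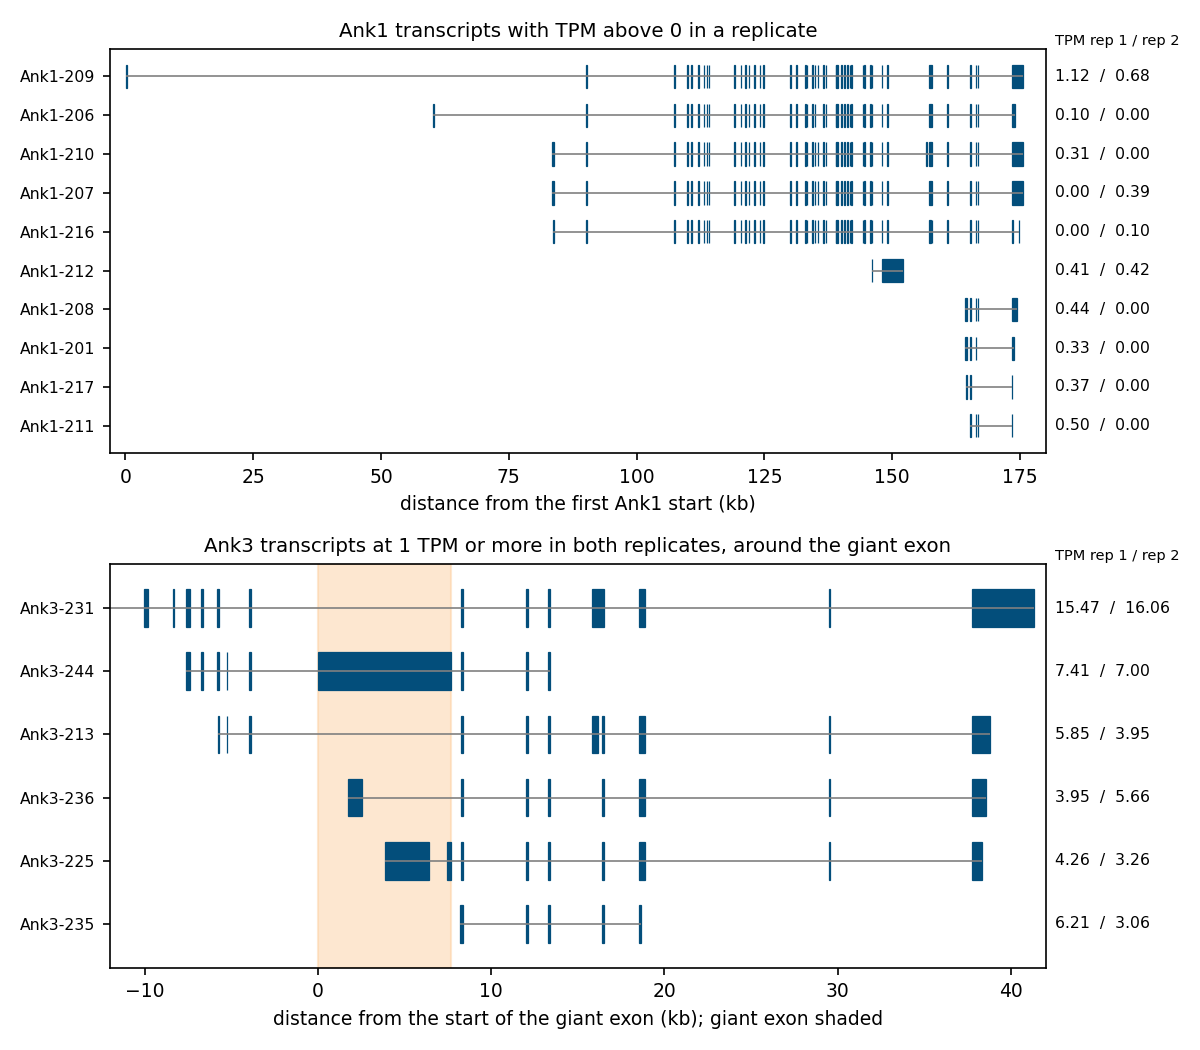
Exons (boxes) of 10 Ank1 transcripts with TPM above 0 in a replicate, by distance from the first start in kb, and of 6 Ank3 transcripts around the giant exon (shaded), by distance from its start in kb, with TPM in replicate 1 and replicate 2 at the right. The 4 Ank1 transcripts at the 3′ end read 0.33 to 0.50 TPM in replicate 1 and 0 in replicate 2, and Ank3-244 alone among those drawn fills the shaded exon.

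Among spectrins, Sptb was the simplest gene. Sptb-202, of 8084 bases, held 86.5% and 84.6% of its TPM, and Sptb-201, of 10394 bases, the remaining 13.5% and 15.4%. Both are full-length coding messages, with coding sequences of 6411 and 6987 bases. Length alone puts Sptb-201 in the giant class, although no giant exon is involved.

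Sptbn1 stood out for a transcript that is not a coding message. Sptbn1-207, annotated as a retained intron, has 2956 bases, of which 1364 are shared with the full-length transcript Sptbn1-202 and 1592 are not. Other Sptbn1 transcripts were not compared. Sptbn1-207 lies at chr11:30099396-30103249, the 3′ end of this reverse-strand gene. It held 48.0% of Sptbn1 TPM in replicate 1 and 54.3% in replicate 2 (73.10 and 89.11 TPM), with intervals that did not overlap (69.2 to 73.8 and 84.7 to 89.6). A retained-intron transcript led in both replicates for 1 of the 6 members that have one, against 5.62% of 5447 protein-coding genes with such a transcript and a mean of 1 TPM. Of the coding messages, Sptbn1-202 held 30.57% and 24.03%, and Sptbn1-201 13.6% in each, both with a coding sequence of 7089 bases. The higher Sptbn1 level of replicate 2 was carried by Sptbn1-207, since the coding transcripts together stood at 69.8 TPM in replicate 1 and 64.3 TPM in replicate 2.

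With protein-coding transcripts alone, the sum of Sptbn1, Sptb and Sptbn4 was 0.571 times Sptan1 in replicate 1 and 0.605 times in replicate 2. The order of Ank2 and Ank3 turned in both pools, with Ank2 at 40.6% and 45.3% of ankyrin TPM and Ank3 at 56.1% and 53.2%. That turn depends on leaving out the giant Ank2 transcripts, which have no type in M21. They held 22.1 and 23.5 TPM, beside coding levels of 28.94 and 32.39 TPM for Ank2 and 39.92 and 38.05 TPM for Ank3. The 8095-base Ank2 transcript (11.56 and 11.05 TPM) is left out too, because M21 types a form of 2359 bases as a retained intron. With coding transcripts alone, the order of Sptbn1 and Sptan1 no longer depended on the pool, with means of 67.1 TPM for Sptbn1 and 130 TPM for Sptan1. In transcripts of at least 4000 bases that order turned in both pools. Sptan1 then stood at 68.02 and 51.54 TPM and Sptbn1 at 69.83 and 64.27 TPM. Transcript types come from M21. For Sptan1 they are less secure, because its leading transcript has 1434 bases in the deposited tables and another length in M21. This transcript held 42.1% and 47.0% of Sptan1 TPM (71.53 and 68.28 TPM). It had 2397 and 2344 expected counts, fewer than the full-length Sptan1-203 with 9316 and 7073. The coding level of Sptan1 above Sptbn1, and the ratios of 0.571 and 0.605, depend on counting this short transcript as coding. Sptan1-203, of 7892 bases, held 28.1% and 24.3% of TPM and stood at 47.62 TPM in replicate 1 and 35.29 TPM in replicate 2, with no overlap of intervals.

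Sptbn4 was represented mostly by messages shorter than the full-length form. Sptbn4-201, with a coding sequence of 7683 bases, held 11.8% and 8.50% of its TPM (0.36 and 0.22 TPM). Sptbn4-203 and Sptbn4-202, each with a coding sequence of 3723 bases, held 37.3% and 45.1%, and 17.1% and 17.4%. A fragment of 493 bases, Sptbn4-206, held 29.1% and 23.4% from 8.90 and 6.03 expected counts. The gene had 286 and 246 counts in all, and the interval of Sptbn4-203 in each pool reaches down to near 0, so the order of its transcripts was not resolved at this depth.

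The starts of these spectrin transcripts are marked by RefSeq promoter windows, available for 5 of the 7 members in 12 windows on GRCm38.p6. Those of Sptbn1 and some of those of Sptbn4 are shown because each gene has alternative annotated starts. At Sptbn1 the transcripts annotated from these starts stood at different levels. Transcript TPM draws on reads over the whole transcript, so use of the starts themselves was not measured. Each window is the 250 bases before an annotated start, on the gene's reverse strand. Capitals mark GGGCGG, the core of the GC box, or TATAAA, the TATA box, searched on both strands.
Sptbn1, start of Sptbn1-202, chr11:30219773-30220022: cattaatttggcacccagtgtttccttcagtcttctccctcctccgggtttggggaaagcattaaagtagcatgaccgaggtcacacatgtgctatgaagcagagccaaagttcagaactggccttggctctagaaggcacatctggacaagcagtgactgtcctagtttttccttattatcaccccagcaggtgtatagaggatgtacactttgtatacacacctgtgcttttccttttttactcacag
Sptbn1, start of Sptbn1-203, chr11:30198258-30198507: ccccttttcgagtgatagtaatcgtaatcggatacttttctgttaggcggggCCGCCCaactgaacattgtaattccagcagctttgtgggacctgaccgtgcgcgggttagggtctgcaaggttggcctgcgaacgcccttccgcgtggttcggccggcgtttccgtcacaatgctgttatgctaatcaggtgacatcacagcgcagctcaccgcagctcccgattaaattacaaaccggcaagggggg
Sptbn4, start of Sptbn4-201, chr7:27446590-27446839: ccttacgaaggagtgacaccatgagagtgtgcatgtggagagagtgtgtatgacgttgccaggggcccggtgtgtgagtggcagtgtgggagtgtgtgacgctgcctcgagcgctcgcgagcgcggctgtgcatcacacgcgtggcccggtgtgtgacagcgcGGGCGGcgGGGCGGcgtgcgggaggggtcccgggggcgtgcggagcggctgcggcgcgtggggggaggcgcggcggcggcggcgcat
Sptbn4, start of Sptbn4-203, chr7:27396554-27396803: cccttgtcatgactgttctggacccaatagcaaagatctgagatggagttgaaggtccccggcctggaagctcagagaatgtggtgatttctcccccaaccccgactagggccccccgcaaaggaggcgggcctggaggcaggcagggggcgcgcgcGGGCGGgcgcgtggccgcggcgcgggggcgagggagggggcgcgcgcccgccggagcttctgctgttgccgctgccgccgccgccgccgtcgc
The Sptbn1 transcript that begins after the first window, Sptbn1-202, was at 46.53 and 39.43 TPM, and Sptbn1-203, which begins after the other, at 2.52 and 2.19 TPM. Sptbn1-201, with a coding sequence as long as that of Sptbn1-202, begins at another start that has no window. It stood at 20.66 and 22.34 TPM. The window of Sptbn1-202 was poor in GC (46.0%, 2 CpG) and held neither motif. That of Sptbn1-203 was richer (55.6%, 20 CpG) and held GGGCGG. Sptbn1-202 has 35 exons against 36 in Sptbn1-201, whose span, chr11:30099395-30268169, takes in the Sptbn1-202 window. Whether that window is a promoter or an intron of Sptbn1-201 was not tested, so the 2 windows are not compared as promoters. Over all 32851 windows the median was 52.4% GC and 6 CpG, with GGGCGG in 32.7% and TATAAA in 12.4%. Both Sptbn4 windows shown were GC-rich (72.0% and 71.6%, with 33 and 28 CpG) and held GGGCGG. Of those not shown, the window of Sptbn4-202 (0.53 and 0.44 TPM) had 48.4% GC and 1 CpG. That of Sptbn4-204, at 0 TPM in both pools, had 75.2% GC and 23 CpG. Each also held GGGCGG. Of the 12 windows of the members, 7 held GGGCGG and 1 held TATAAA. A match is only a description of the letters in the window.

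Between the pools, the members differed by less than 2-fold in counts. By counts scaled with TMM, the log2 ratio of replicate 2 over replicate 1 was 0.06 for Sptbn1, -0.29 for Sptan1, 0.17 for Ank2, 0.03 for Ank3, -0.22 for Sptb, -0.20 for Sptbn4 and -0.42 for Ank1. None of the 7 was over 2-fold apart, where 4.46% of 15910 genes with a mean of 1 TPM were. The members' median was -0.20, beside -0.00306 over all those genes. In size, the ratios of the members ran up to 0.42, where the median size over all those genes was 0.15 and the 95th percentile 0.90. The 95% counting intervals of Ank3 (-0.02 to 0.08) and Sptbn4 (-0.45 to 0.05) include 0, and those of the other 5 do not.

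By deposited intervals, 3 of 7 members (Sptan1, Sptb and Ank1) were higher in replicate 1 without overlap, against 19.7% of genes, and 2 of 7 (Sptbn1 and Ank2) were higher in replicate 2, against 9.87%. Of these, Sptbn1 in both libraries and Ank1 in replicate 2 have a TPM outside their own interval. These directions depend on the scaling. Spike-in totals shift every gene by 0.45 on the log2 scale toward replicate 2, and all 7 members then had positive ratios, from 0.03 for Ank1 to 0.62 for Ank2. Ank1 was 2.26-fold higher in replicate 1 by deposited TPM and 1.34-fold higher by counts with TMM. Its effective length, the length over which reads could fall, was 4271 bases in replicate 1 and 6920 in replicate 2.

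**Figure D4:**
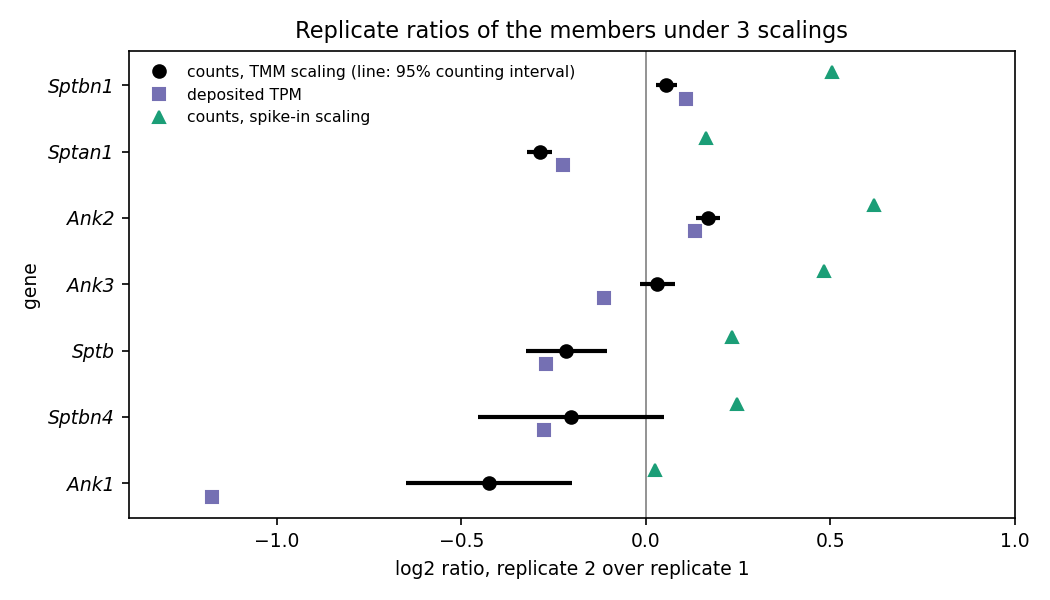
Log2 ratio of replicate 2 over replicate 1 for each gene by TMM-scaled counts (black, with 95% counting intervals), by deposited TPM (purple squares) and by counts scaled to spike-in totals (green triangles); the grey line marks equal levels. Spike-in scaling moves all 7 ratios above 0, and Ank1 has the largest gap between counts and TPM.

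The partners that tie spectrin to actin were present throughout. All 11 junction genes were detected in both replicates, with a median level of 39.9 TPM. Tmod2, the neuronal tropomodulin that caps actin filament ends, was the highest at 242 and 280 TPM, followed by Add1, an adducin that joins spectrin to filament ends, at 196 and 180 TPM, and Epb41l3, a protein 4.1 family member, at 72.0 and 70.8 TPM. Tmod1, the tropomodulin of red cells and striated muscle, was the lowest at 2.53 and 1.73 TPM. By intervals, 5 of the 11 were higher in replicate 1 (19.7% over all genes), 1 in replicate 2 (9.87%) and 5 overlapped, and 0 were over 2-fold apart (4.46%).

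The membrane proteins that ankyrins gather on axons were also all detected, 11 of 11, with a median of 34.9 TPM. The adhesion molecules L1cam (118 and 91.3 TPM), Chl1 (78.99 and 74.04 TPM) and Nrcam (54.4 and 47.8 TPM) led. The sodium channels were at 38.1 and 31.7 TPM for Scn3a, 36.8 and 39.4 TPM for Scn2a, 16.1 and 20.5 TPM for Scn1a and 8.95 and 6.46 TPM for Scn8a, the main channel of mature initial segments. Kcnq3, a potassium channel subunit with an ankyrin-G binding motif, was the lowest of the list at 2.46 and 3.01 TPM. Of the 11, 6 were higher in replicate 1 (19.7% over all genes), 2 in replicate 2 (9.87%) and 3 overlapped, and 0 were over 2-fold apart (4.46%). Over all its transcripts, Ank3 at 58.9 TPM was thus above each of the 4 sodium channels in both pools, while Sptbn4 at 2.82 TPM was below all 4. The long Ank3 transcripts alone held 30.07 and 29.34 TPM, below Scn3a and Scn2a and above Scn1a and Scn8a. Sodium channel transcripts were not split by length.

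**Figure D5:**
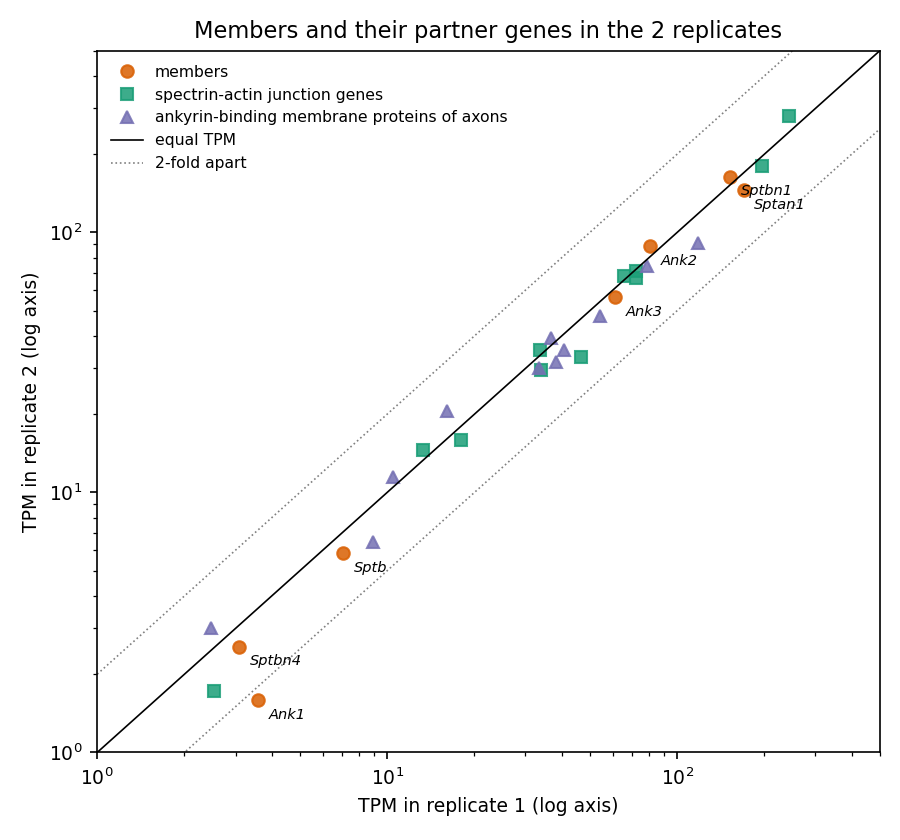
TPM in replicate 1 (horizontal) against replicate 2 (vertical), both on log axes, for the 7 members (orange circles), spectrin-actin junction genes (green squares) and ankyrin-binding axonal membrane proteins (purple triangles); the solid line marks equal TPM and the dotted lines 2-fold. Ank1 lies beyond the 2-fold line by TPM, and all other points lie within it.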

How the data were processed

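Total RNA-seq of 2 pooled E16.5 hindbrain samples, 1 group, was used. The authors quantified each replicate against mm10 with GENCODE M4, per the submitters' processing notes; no source used here names the tool or says whether strand was used. Per the file headers, the deposited gene and transcript tables hold expected counts, TPM, FPKM, the percent of a gene's TPM per transcript, effective lengths, and TPM interval bounds, treated as scores, without a stated level. Counts totalled 42467811 and 42017008. Intervals and the limit of 3 counts cover counting error only, since no molecular identifiers are recorded. Antisense overlaps cannot be told apart.

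Names, types and exons came from GENCODE M21 (GRCm38), with 42462 of 43346 genes matched; M21 transcript structures were used where lengths equalled the deposited ones, except that the Ank2 joins come from Ank2-208, whose lengths differ. Junctions came from M21 transcripts and promoters from RefSeq (GRCm38.p6). Expected counts were rounded and scaled by TMM in edgeR 4.0.16 (R 4.3.3) without spike-ins. Ratios used a prior count of 0.5 and exact conditional 95% intervals, and the step was tested on simulated data. DESeq2 1.42.0 size factors, spike-in totals, FPKM and other thresholds were alternatives. Python 3.11.15, pandas 2.3.3 and SciPy 1.17.1 handled tables.

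Named are all 7 members, their transcripts with at least 10% of TPM in a replicate, the longest ankyrin transcripts, and of each list the 3 highest, the lowest and some over 2-fold apart; other names were chosen after values were seen. Members and lists were chosen with earlier results of these data known. Nothing says how the embryos of the pools were related. One red cell marker, Ahsp, was not analysed here. A few list genes are counted in the list totals but not reported by name.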

Additional observations from a re-analysis of the deposited data

How the results depend on the processing

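No paired analysis was possible because the samples form a single group. With 2 libraries, the depth of 42017008 counts or more leaves Ank1 and Sptbn4 on 246 to 385 counts, and the transcripts of both are not resolved. Detection held at 7 of 7 except at 5 TPM (5 of 7), and 4 neighbouring pairs differed, against 3 at a 1.5-fold limit and 5 with either replicate left out. No member was over 1.5-fold apart by TMM-scaled counts. Leaving out the filter on level could not change the counts of members, since all 7 averaged above 1 TPM. A prior count of 2 turned no direction, nor did DESeq2 size factors, which came out at 1 and 1 and so scale nothing.

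With protein-coding transcripts alone the levels were 67.05 TPM for Sptbn1, 129.8 for Sptan1, 30.7 for Ank2 and 38.98 for Ank3. The Sptan1 level counts a transcript with a deposited length of 1434 bases as coding, and the giant transcripts of Ank2 have no M21 type. Spike-in totals gave log2 ratios of 0.51 for Sptbn1, 0.62 for Ank2 and 0.48 for Ank3, and reversed Sptan1 (0.16), Sptb (0.23), Sptbn4 (0.25) and Ank1 (0.026). Deposited TPM gave 0.11 for Sptbn1, -0.22 for Sptan1, 0.13 for Ank2, -0.11 for Ank3, which reversed, and -1.17 for Ank1. The cause was not tested.

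The long share of Ank2 was 69.6%, and 74.3% from 3000 bases, 40.3% from 6000 bases, 74.7% of coding TPM and 89.7% of counts. That of Ank3 was 50.5%, and 41.4% from 6000 bases, 60.5% of coding TPM and 85.5% of counts. That of Ank1 was 77.1%, between 54.2% and 100% with a replicate left out, and 95.9% of counts. From 8000 bases the giant share was 53.6% for Ank1, 40.3% for Ank2 and 39.5% for Ank3. From 12000 bases it was 21.9% for Ank2. The giant Ank2 share by counts was 52.3%, and the Ank3 share by its largest exon 29.2%. The shares by counts and by exon, and Ank1 without its last start, were added after seeing the data.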
